A study of Mus musculus with 4 samples.

Results

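Astrocytes (ASTs) clear glutamate, potassium and water from the space around neurons, and the 9 genes described here code for the proteins that do this work and for the channels that join ASTs into a network. They are *Slc1a2* and *Slc1a3* (glutamate uptake), *Glul* (glutamine synthesis), *Kcnj10* (a potassium channel), *Aqp4* (a water channel), *Slc4a4* (sodium bicarbonate transport) and *Gja1*, *Gjb6* and *Gjb2* (connexins). They were chosen by symbol, and all 9 were among the 31053 genes measured. The study compared single hippocampal cells of mice after sham surgery and after transient 2-vessel occlusion (2VO), in which both common carotid arteries were clamped and then released. In sham mice the clamps were released at once, with the same anesthesia. Per the labels all mice were C57BL/6 and 12 weeks old, while the methods give a younger age range and state that they were male and that each suspension came from the whole hippocampus of 1 mouse, with no sorting. Counts were available for 2 sham libraries (sham 1 and sham 2) and 1 2VO library (2VO 1), and 2VO 2 was not analysed here. With 1 mouse on the 2VO side, a difference between the groups and a difference between single mice cannot be told apart.

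The cells described are barcodes in which 650 or more genes were seen, 5109 of them from sham 1, 5126 from sham 2 and 3912 from the 2VO library. These held 64667950, 39017426 and 17681002 unique molecular identifiers (UMIs, counts of captured RNA molecules). Depth per cell had a median of 8191, 5249 and 2311 UMIs, in the same order, so 2VO 1 was the shallowest library. Between 7 and 10 kept barcode sequences were shared by each pair of libraries. Cells fell into 28 clusters, built without the 9 genes, of which 26 were named from marker lists that also held none of them. The cluster called ASTs showed all 12 of its AST markers, and no library lacked it. It took 211 sham 1 cells, 232 sham 2 cells and 38 from 2VO 1.

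In the intact brain, glutamate released by neurons is carried into ASTs mainly by the transporters that *Slc1a2* (GLT-1) and *Slc1a3* (GLAST) encode, and glutamine synthetase, the product of *Glul*, converts it to glutamine, which is handed back to neurons. The inward rectifier Kir4.1 (*Kcnj10*) and the water channel aquaporin-4 (*Aqp4*) are concentrated at the endfeet that wrap blood vessels. The bicarbonate cotransporter NBCe1 (*Slc4a4*) takes part in pH control. Connexin 43 (*Gja1*), connexin 30 (*Gjb6*) and connexin 26 (*Gjb2*) form the gap junctions through which ions and small molecules pass between cells.

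The bases just before the start of transcription are shown for the 3 connexin genes, since 2 of them are neighbours whose levels differed between cell classes, and for *Glul*, the gene called in the largest number of classes. Each sequence is the 250 bases upstream of the RefSeq start (GRCm38.p6), on the strand of the gene, with every GGGCGG (GC box), CCAAT and TATAAA on either strand in capitals. *Gjb2* (chr14:57104703-57104952, minus) and *Gjb6* (chr14:57133612-57133861, minus) come first, then *Gja1* (chr10:56377050-56377299, plus) and *Glul* (chr1:153899679-153899928, plus).
Gjb2: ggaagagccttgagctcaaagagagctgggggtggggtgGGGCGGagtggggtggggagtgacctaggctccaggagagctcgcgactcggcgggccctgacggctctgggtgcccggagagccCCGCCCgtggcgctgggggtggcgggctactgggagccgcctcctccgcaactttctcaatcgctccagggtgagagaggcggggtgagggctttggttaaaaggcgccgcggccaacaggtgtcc
Gjb6: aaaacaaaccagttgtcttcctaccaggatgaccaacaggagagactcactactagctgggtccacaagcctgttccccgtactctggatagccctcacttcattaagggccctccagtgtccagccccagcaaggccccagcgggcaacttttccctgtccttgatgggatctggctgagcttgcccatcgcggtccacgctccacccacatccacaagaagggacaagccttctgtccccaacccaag
Gja1: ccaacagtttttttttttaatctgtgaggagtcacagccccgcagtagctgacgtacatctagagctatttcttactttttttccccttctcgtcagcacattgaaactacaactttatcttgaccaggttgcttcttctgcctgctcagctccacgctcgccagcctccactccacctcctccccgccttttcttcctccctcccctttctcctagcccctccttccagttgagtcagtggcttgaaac
Glul: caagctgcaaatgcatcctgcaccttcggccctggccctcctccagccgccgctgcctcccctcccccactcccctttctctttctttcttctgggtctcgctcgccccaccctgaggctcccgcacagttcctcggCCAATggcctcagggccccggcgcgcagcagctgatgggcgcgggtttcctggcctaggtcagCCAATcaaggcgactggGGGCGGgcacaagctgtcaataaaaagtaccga

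The *Gjb2* window had 69.2% G and C and held the GC box letters 2 times. The *Gjb6* window had 56.8% G and C and held none of the 3 motifs, and the same was so of the *Gja1* window at 50.0%. The *Glul* window, at 64.8%, held CCAAT 2 times and the GC box letters 1 time, and TATAAA was in none of the 4. Among the windows of 32851 RefSeq starts of the same length, 32.7% held the GC box letters, 33.8% CCAAT and 12.4% TATAAA, so these matches are common and are a description only.

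By the GENCODE annotation of GRCm38, the build of the deposited counts, all 9 are protein-coding genes. *Glul* lies at chr1:153899944-153909723 (plus strand), *Kcnj10* at chr1:172341210-172374085 (plus), *Slc1a2* at chr2:102658659-102790784 (plus), *Slc4a4* at chr5:88886818-89239653 (plus) and *Gja1* at chr10:56377330-56402513 (plus). *Gjb2* at chr14:57098600-57104702 (minus) and *Gjb6* at chr14:57123303-57133611 (minus) are neighbours on the same strand, with 18600 bases between them. *Slc1a3* lies at chr15:8634124-8710764 (minus) and *Aqp4* at chr18:15389496-15410982 (minus).

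Levels across cell classes are given as UMIs of a gene per 10000 UMIs of all cells of that class in a library, a description with no test. Reads come from the 3′ end and are not scaled by gene length, so each gene was compared only with itself. For 7 of the 9 genes the class with the highest mean over the 3 libraries was ASTs. For *Slc1a2* the sham libraries read 86.6 and 92.7 and 2VO 1 read 99.8, and the next class, oligodendrocyte precursor cells (OPCs), ranged from 3.32 to 6.15. *Slc1a3* stood at 33.6, 34.1 and 31.6 in ASTs, and next came vascular leptomeningeal cells (VLMCs), the fibroblast-like cells of the meninges and large vessels, at 2.64 to 5.08. In both glutamate transporter genes the gap between ASTs and every other class was wider than the spread over libraries.

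*Aqp4*, *Gja1* and *Slc4a4* had ASTs first and ependymal cells (EPNs), the ciliated cells that line the ventricles, second. *Aqp4* read 9.87, 8.59 and 12.3 in ASTs of sham 1, sham 2 and 2VO 1, and 3.30 to 3.94 in EPNs. In no other class did its mean over libraries exceed 0.119. *Gja1* read 11.8, 14.3 and 15.0 in ASTs against 3.1 to 4.4 in EPNs, followed by VLMCs at 2.42 to 2.96 and endothelial cells (ECs) at 0.466 to 0.874, and none of these 4 neighbours in the order overlapped over libraries. *Slc4a4* read 17.8, 14.4 and 14.9 in ASTs and 0.659 to 1.39 in EPNs. Only 9 EPNs came from 2VO 1, against 74 and 80 in the sham libraries.

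*Glul* and *Kcnj10* were spread over more classes. *Glul* stood at 32.1, 30.3 and 31.3 in ASTs, and oligodendrocytes (OLGs), VLMCs, ECs and microglia followed at 8.18 to 19.6, 8.97 to 12.2, 8.85 to 11.3 and 9.05 to 9.83, in an order whose ranges over libraries overlapped from OLGs to microglia. *Kcnj10* stood at 2.93, 1.80 and 2.77 in ASTs and at 1.76 to 2.97 in OLGs, so these 2 classes did not differ beyond the spread over libraries. OPCs (1.16 to 2.11), EPNs (1.10 to 1.83) and committed oligodendrocyte precursors (COPs, 1.09 to 1.96) were close behind.

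The connexins *Gjb6* and *Gjb2*, neighbours on chromosome 14, had their highest mean in VLMCs. *Gjb2*, whose upstream window holds 2 GC boxes, read 4.08, 4.72 and 2.85 in VLMCs of sham 1, sham 2 and 2VO 1, and 0.179 to 0.286 in ASTs, which did not overlap. *Gjb6* read 3.11, 5.22 and 3.28 in VLMCs and 3.34, 2.78 and 3.32 in ASTs, so VLMCs and ASTs overlapped, and in every other class its mean was at most 0.0535. VLMCs, with 44, 121 and 32 cells, also held the third connexin *Gja1* (above) but little of 2 other genes of the set, with a mean of 0.69 for *Slc1a2* and 0.0524 for *Aqp4*. The 12 AST markers summed to 9.90 to 21.4 UMIs per 10000 in VLMCs and to 104 to 122 in ASTs, and their part in the connexin levels of VLMCs was not tested.

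**Figure D1:**
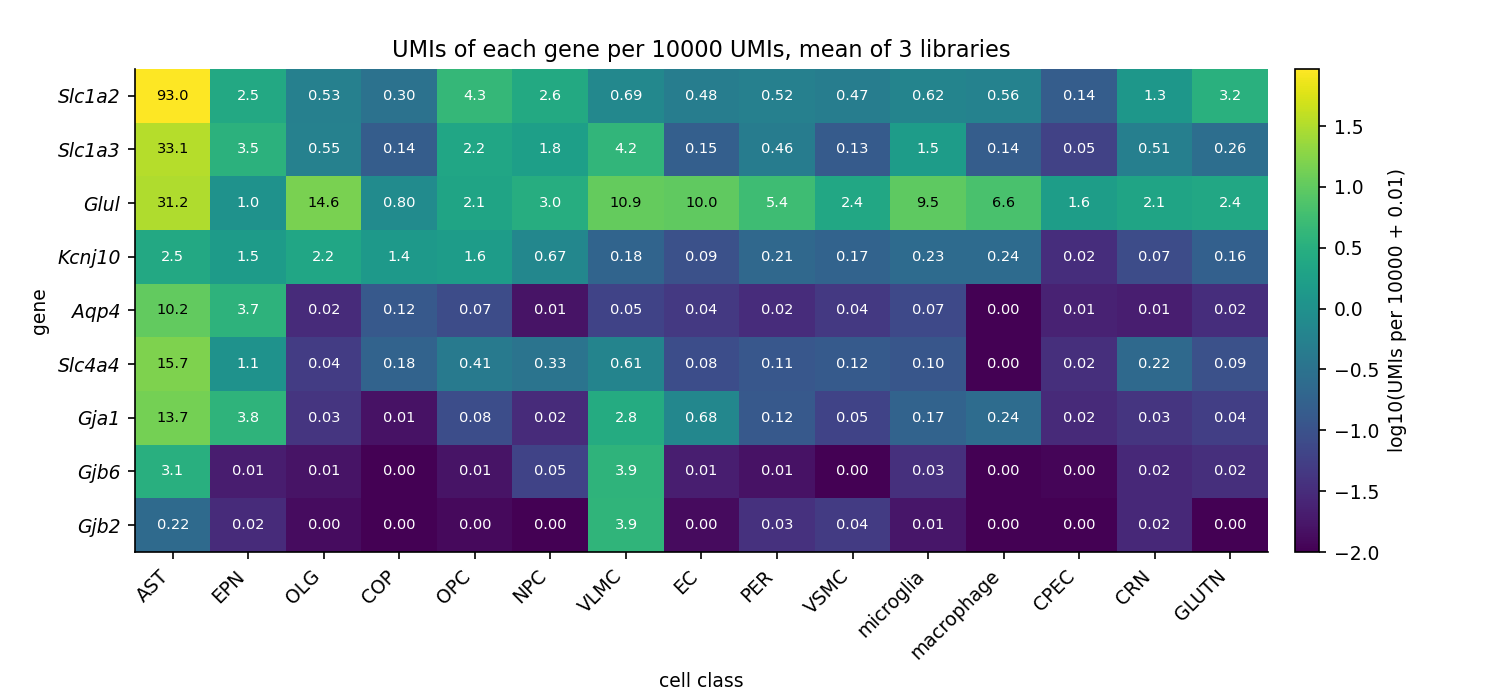
The heat map shows UMIs of each of the 9 genes (rows) per 10000 UMIs in 15 named cell classes (columns), as the mean of 3 libraries, on a log colour scale with the values printed. ASTs have the highest mean for 7 genes, VLMCs for *Gjb6* (3.87) and *Gjb2* (3.88). *Glul* is also seen in OLGs, VLMCs, ECs and microglia, and *Kcnj10* in OLGs, OPCs, EPNs and COPs.

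The same data show which cells carried each gene's RNA in a library, a count that depends on how many cells of each class were caught. ASTs held 74.3% of the *Slc1a2* UMIs of sham 1 and 83.5% of sham 2 but 46.1% in 2VO 1. For *Slc1a3* the AST share was 57.0%, 71.97% and 34.3%, for *Slc4a4* 78.3%, 83.0% and 50.9%, and for *Gja1* 61.4%, 69.3% and 37.2%. For *Aqp4* it was 70.4%, 68.4% and 72.8%, while the EPN share of *Aqp4* was 22.6%, 26.2% and 3.70%. OLGs, not ASTs, held most of *Kcnj10* (74.3%, 69.0% and 55.8%) and the largest share of *Glul* (55.4%, 52.0% and 36.7%), and VLMCs held most of *Gjb2* (65.6%, 83.5% and 78.4%).

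**Figure D2:**
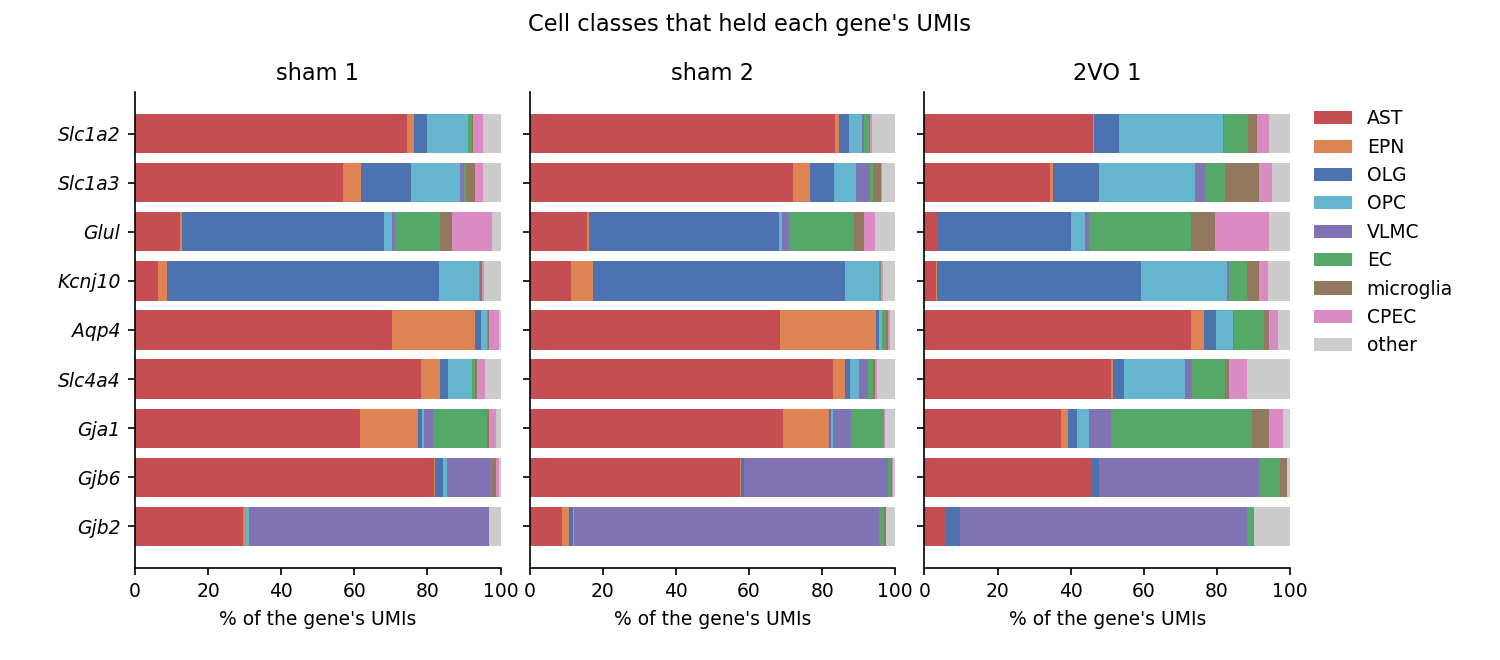
Stacked bars give the percent of each gene's UMIs (x axis, 0 to 100) that lay in cells of each class, in sham 1, sham 2 and 2VO 1. The AST part of *Slc1a2* falls from 74.3% and 83.5% in the sham libraries to 46.1% in 2VO 1, and the *Kcnj10* bar is mostly OLGs in all 3.

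ASTs were 4.13% of kept cells in sham 1 (95% exact interval 3.60 to 4.71), 4.53% in sham 2 (3.97 to 5.13) and 0.97% in 2VO 1 (0.69 to 1.33), intervals that cover counting error only. The question asked next was whether these genes differed within ASTs, as a share of the counts of those cells. Counts were summed over the ASTs of each library, and edgeR's quasi-likelihood test with Benjamini-Hochberg adjustment was run over all genes that passed a filter on low counts. A gene was called when the adjusted p was under 0.05 and the fold over 1.5. Among ASTs 0 of the 9 genes were called, against 0% of the 10533 genes tested, of which 1359 had an unadjusted p under 0.05, and 0 of the 9 did. DESeq2, run without the filter, called 18 genes of 15956 and 0 of the 9.

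*Slc1a2* stood at 8715 CPM (counts scaled to a common library size with TMM factors) in sham 1, 9937 in sham 2 and 9572 in 2VO 1, with 2VO 1 inside the range of both sham libraries (log2 fold change 0.037, SE 0.20, edgeR adjusted p = 0.957). *Slc1a3* stood at 3383, 3657 and 3029 CPM, with 2VO 1 below both sham libraries by an amount within the error (-0.22, SE 0.17, edgeR adjusted p = 0.642). *Glul*, the next step of the cycle, stood at 3227, 3250 and 3002 CPM (-0.11, SE 0.17, edgeR adjusted p = 0.823). The 95% intervals of these 3 log2 differences were -0.44 to 0.52, -0.65 to 0.21 and -0.52 to 0.30, so at this depth 2-fold shifts lay outside them in both directions.

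The channel and cotransporter genes gave the same picture in ASTs. *Kcnj10* read 295 CPM in sham 1, 193 in sham 2 and 266 in 2VO 1, also inside the sham range (0.13, 95% interval -0.75 to 1.00). *Aqp4* read 993, 921 and 1176 CPM, with 2VO 1 above both sham libraries (log2 fold change 0.30, SE 0.17, 95% interval -0.11 to 0.71, edgeR adjusted p = 0.497). *Slc4a4* read 1791, 1545 and 1428 CPM, with 2VO 1 below both (-0.22, 95% interval -0.68 to 0.23, edgeR adjusted p = 0.652). When ASTs with a UMI of any of 8 OLG markers were left out, *Aqp4* turned to -0.79 with 16 ASTs left in 2VO 1, and it was still not called.

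Of the connexins in ASTs, *Gja1* read 1188, 1530 and 1441 CPM (log2 fold change 0.084, 95% interval -0.44 to 0.61) and *Gjb6* 336, 298 and 319 CPM (0.0086, 95% interval -0.51 to 0.53), both with 2VO 1 between the sham libraries. *Gjb2* read 28.8, 19.2 and 19.9 CPM from 36, 28 and 3 UMIs, and the 95% interval of its difference ran from -2.21 to 1.70, so that a 2-fold change could not be told from none at this depth. The median log2 fold change of the 9 genes was 0.0086 (-0.059 without sham 1 and -0.10 without sham 2), and that of all genes tested in ASTs was -0.093. Leaving out 1 sham library turned the sign of *Slc1a2*, *Kcnj10*, *Gja1*, *Gjb6* and *Gjb2*, so no direction is given for these 5 genes.

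**Figure D3:**
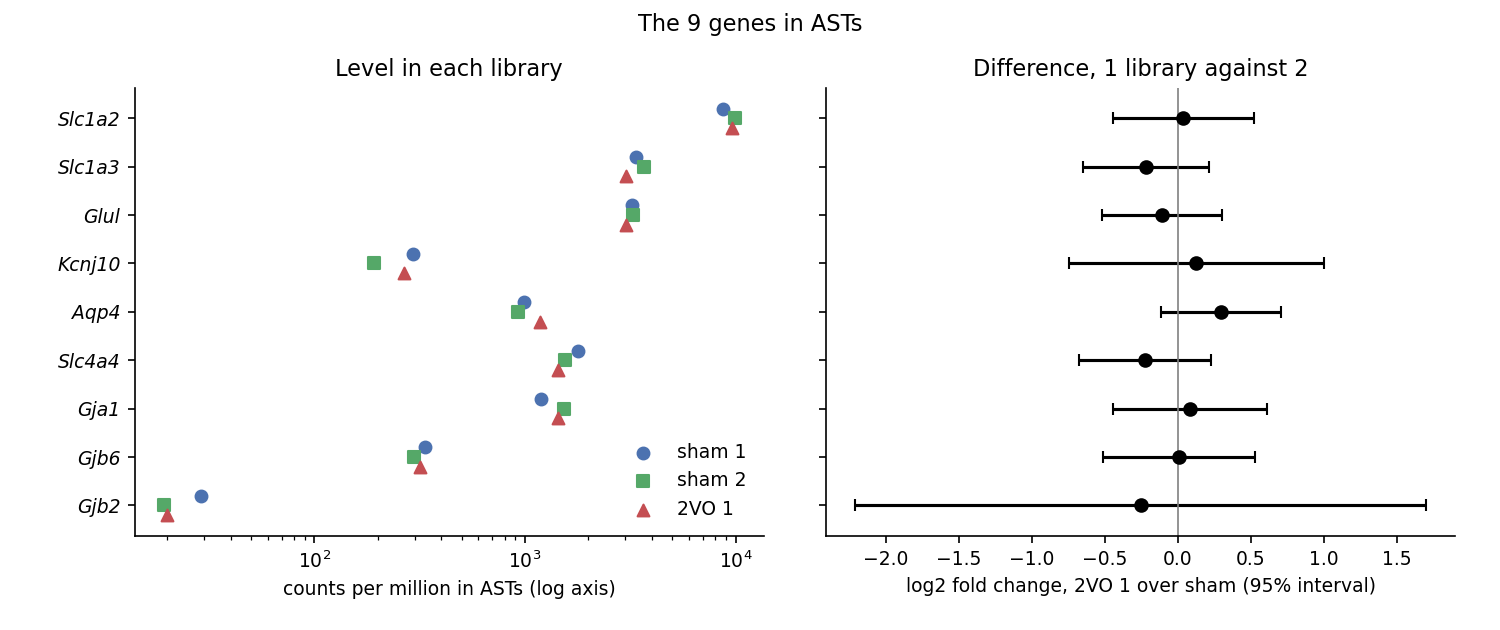
The left panel gives CPM in ASTs on a log axis, 1 point per library, and the right panel the log2 fold change of 2VO 1 over the 2 sham libraries with its 95% interval. All 9 intervals cross 0, and that of *Gjb2* (-2.21 to 1.70) is the widest.

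Cells varied far more than libraries. Per AST, *Slc1a2* had quartiles of 39.6, 67.4 and 117 UMIs per 10000 in sham 1, 48.7, 88.6 and 134 in sham 2 and 66.7, 92.4 and 126 in 2VO 1. For *Aqp4* the median AST had 6.70, 6.37 and 6.35, and the highest 62.0, 63.3 and 73.7, so the libraries overlapped over nearly their whole range. *Aqp4* was detected in 81.0%, 84.5% and 81.6% of ASTs in the order of the libraries above. In ECs, which should lack it, the share was 0.485%, 1.18% and 1.09%, with median depths of 3011, 2645 and 1979 UMIs against 4734, 5792 and 3423 in ASTs.

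To compare shares at equal depth, each cell was thinned to 1000 UMIs, which left out no AST. Of thinned ASTs, 86.7%, 87.5% and 86.8% held both *Slc1a2* and *Slc1a3*. The median AST held 5 of the 9 genes in each library, and 75.8%, 71.1% and 71.1% held 5 or more. A UMI of *Slc4a4* was found in 77.3%, 67.7% and 57.9% of thinned ASTs (92.9%, 93.1% and 92.1% before thinning), and one of *Kcnj10* in 25.1%, 21.1% and 28.9% (68.2%, 59.5% and 52.6%). Without thinning, *Gja1* and *Gjb6* were both found in 126 of 211, 150 of 232 and 21 of 38 ASTs. *Gjb6* without *Gja1* was found in 5, 7 and 0, and *Gjb2* without *Gja1* in 0 of each library.

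Re-clustering the 481 ASTs without the 9 genes gave 8 subclusters, described with no test. The subcluster led by *Etnppl* held 59 of 211 ASTs of sham 1, 63 of 232 of sham 2 and 24 of 38 of 2VO 1. The one led by *Cldn10* held 61, 83 and 1. Within the *Etnppl* subcluster, *Slc1a2* read 65.3, 117 and 118 UMIs per 10000 in sham 1, sham 2 and 2VO 1, and *Gja1* 17.0, 20.7 and 19.0. There *Aqp4* read 9.87, 9.76 and 7.31, with 2VO 1 below both sham libraries. *Slc1a3* read 28.8, 36.3 and 36.6 and *Glul* 25.3, 29.6 and 34.0, with 2VO 1 above both. In CPM over all ASTs, 2VO 1 lay on the other side for these genes. *Slc4a4* (here 26.4, 20.1 and 19.4) was below both in each reading. *Kcnj10*, *Gja1*, *Gjb6* and *Gjb2* had 2VO 1 between in both readings. The part that the subcluster mix had in the AST differences was not tested. *Aqp4* differed between subclusters. It read 34.2 in a subcluster of 25 cells led by *Myoc* and *Serpinf1* and 2.62 to 9.46 in the other 7, and a subcluster of 42 cells led by *Tmem132b* was low in *Aqp4* (3.89), *Gjb6* (0.69) and *Glul* (14.6). Subclusters of 30 and 22 cells were led by genes of neurons (*Camk2a*) and ECs (*Cldn5*), with *Slc1a2* at 102 and 46.3.

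Summed over all kept cells, the set looked different. *Slc1a2* stood at 243 CPM in sham 1, 442 in sham 2 and 166 in 2VO 1, below both. *Slc1a3* (log2 fold change -1.14, SE 0.37), *Slc4a4* (-1.38, SE 0.34) and *Aqp4* (-1.62, SE 0.42) had unadjusted p of 0.030, 0.011 and 0.014, and the edgeR adjusted p was 0.470 for each of these 3. None of the 9 genes was called over all cells, against 0% of 17147 genes tested (1810 at an unadjusted p under 0.05), and their median was -1.05 (-1.42 without sham 1 and -0.61 without sham 2) where that of all genes was 0.027. With ASTs left out of the sums the median of the set was -0.18, and *Slc4a4* moved to -0.045 and *Slc1a3* to -0.23, while *Aqp4* gave -1.85 (SE 0.53, edgeR adjusted p = 0.483). EPNs, the other class with *Aqp4*, were 1.45%, 1.56% and 0.23% of kept cells. How many ASTs and EPNs a suspension yields and how many the tissue held cannot be told apart here.

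Outside ASTs, 12 more classes had at least 10 cells in every library. There *Glul* and *Kcnj10* were the genes that passed the test, and every call was higher in 2VO 1. *Glul* was higher in neural progenitor cells (NPCs), at 124 CPM in sham 1, 132 in sham 2 and 588 in 2VO 1 (log2 fold change 2.21, SE 0.29, edgeR adjusted p = 0.000471). In vascular smooth muscle cells (VSMCs) it read 116, 178 and 431 CPM (1.53, SE 0.26, edgeR adjusted p = 1.79e-06), in OPCs 159, 153 and 298 (0.93, SE 0.18, edgeR adjusted p = 0.0128) and in COPs 49.4, 52.7 and 152 (1.59, SE 0.45, edgeR adjusted p = 0.0174). In each of these 4 classes 2VO 1 lay above both sham libraries. The share of all genes called higher was 1.64% in NPCs, 2.35% in VSMCs, 9.84% in OPCs and 2.78% in COPs, so a call in OPCs was the least unusual. DESeq2 called *Glul* in OPCs, not in NPCs or VSMCs, and gave no adjusted p in COPs, where the call was also lost without the filter on low counts.

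The OPC class joined 2 clusters that the libraries filled unevenly, which touches every OPC value. One, led by *Cdo1* and *C1ql1*, held 577 and 261 OPCs of the sham libraries and 65 of 2VO 1, and the other, led by *Pcdh15* and *Vcan*, held 49, 38 and 388. Their median depths were 6987 and 2513 UMIs. Within the first, *Glul* read 1.11, 1.04 and 1.84 UMIs per 10000 in sham 1, sham 2 and 2VO 1, and within the second 4.38, 4.37 and 3.79, where 2VO 1 lay below both. The higher *Glul* of OPCs in 2VO 1 was thus not seen within the cluster that held most of its OPCs, values given with no test. NPCs of 2VO 1 were 31 cells of one cluster and 1 of another, against 125 and 45 in sham 1 and 63 and 10 in sham 2. In the first of these *Glul* read 0.971, 1.04 and 6.86.

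*Kcnj10* was higher in ECs, at 3.98 CPM in sham 1, 1.73 in sham 2 and 19.1 in 2VO 1 (log2 fold change 2.79, SE 0.49, edgeR adjusted p = 0.0255), where 2.27% of all genes were called higher. These values rest on 16, 10 and 65 UMIs in 1031, 1608 and 1189 cells, and 4.46% of ECs of 2VO 1 held a UMI (95% exact interval 3.36 to 5.79), against 1.36% and 0.622% in the sham libraries. In NPCs *Kcnj10* read 21.1, 5.49 and 154 CPM from 20, 2 and 11 UMIs (3.27, SE 0.78, edgeR adjusted p = 0.0248). Without sham 1 the log2 fold change was 4.72 in NPCs and 3.44 in ECs, and without sham 2 it was 2.85 and 2.25, and DESeq2 did not call it in ECs and gave no adjusted p in NPCs. After thinning to 1000 UMIs, the share of ECs with a *Kcnj10* UMI was 0.2%, 0% and 1.97%.

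In 7 classes 0 of the genes tested were called. These were OLGs (0% of all genes called by edgeR, 4091 at an unadjusted p under 0.05, 1288 called by DESeq2), pericytes (0%, 1047 and 1), VLMCs (1.06%), microglia (5.55%), macrophages (4.44%), choroid plexus epithelial cells (CPECs, 4.65%) and Cajal-Retzius neurons (CRNs, 6.79%). Some were called under an alternative. Without the filter on low counts these were *Glul* in CPECs (0.68, edgeR adjusted p = 0.0334, against 0.121 with the filter), *Kcnj10* in microglia (1.73, edgeR adjusted p = 0.00222, against 0.126) and *Slc1a2* in OLGs (0.73, edgeR adjusted p = 0.0239). After thinning they were *Slc1a2* in OLGs (1.11) and microglia (1.28) and *Glul* in pericytes (1.24), and with doublets removed *Kcnj10* in pericytes (4.26). These alternatives also called more of all genes. Without the filter, 396 of 18868 were called higher in CPECs, 983 of 16323 in microglia and 1310 of 18092 in OLGs. Thinning gave 981 of 9074 in OLGs, 375 of 4901 in microglia and 87 of 4615 in pericytes. With doublets removed it was 375 of 7992 in pericytes. The *Slc1a2* calls in OLGs thus came beside many others.

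In classes with a call, other genes came near it. *Slc1a2* in OPCs read 372, 354 and 553 CPM with 2VO 1 above both (log2 fold change 0.61, SE 0.19, edgeR adjusted p = 0.0533), and it was called under 5 alternatives. Under these, from 918 of 10772 to 1661 of 12159 of all genes tested in OPCs were called higher, so such a call was not unusual. The level of *Slc1a2* was also read by cluster. In the OPC cluster led by *Cdo1* it read 3.73, 3.25 and 4.74 UMIs per 10000, and in the one led by *Pcdh15* 1.93, 3.86 and 6.60, with 2VO 1 above both sham libraries in each. *Slc1a3* in ECs read 10.7, 11.8 and 21.7 CPM (0.94, SE 0.29, edgeR adjusted p = 0.123). In ECs with no UMI of an OLG marker its log2 fold change was -0.12.

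Markers of OLGs were read in the classes with a call of *Glul* or *Kcnj10*, and they did not follow the calls in all of them. The 8 OLG markers, all of them detected in NPCs, VSMCs, OPCs, COPs and ECs of 2VO 1, summed in ECs to 3.83 UMIs per 10000 in sham 1, 1.40 in sham 2 and 8.99 in 2VO 1. They summed to 18.6, 0.603 and 31.0 in NPCs and to 12.0, 6.45 and 14.1 in VSMCs, above both sham libraries in these 3 classes. In OPCs (15.5, 4.47 and 14.5) and COPs (37.3, 43.5 and 40.6) 2VO 1 lay between the sham libraries. Among classes with no call, 2VO 1 was also above both in VLMCs (4.28, 6.99 and 21.1), microglia (21.2, 2.91 and 30.0), macrophages, CRNs and CPECs. It was below both in ASTs (11.4, 10.5 and 6.37) and OLGs and between in pericytes. A higher sum in 2VO 1 was thus not particular to classes with a call. At least 1 UMI of these markers was found in 70.5% of ECs of 2VO 1, against 40.6% and 25.4%, at lower depth per cell.

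Ratios of *Kcnj10* and *Glul* to the OLG markers are given as a description with no test. Per UMI of the 8 markers, OLGs held 0.0089, 0.0104 and 0.0193 UMIs of *Kcnj10*, and ECs held 0.0103, 0.0118 and 0.0225. The ratio was 0.0097, 0.0122 and 0.0227 in VSMCs, but 0.0099, 0.08 and 0.057 in NPCs. For *Glul* the ratio in OLGs was 0.0366, 0.0957 and 0.127 in sham 1, sham 2 and 2VO 1, and in ECs 2.58, 6.34 and 1.26. It was 0.0582, 1.92 and 0.218 in NPCs and 0.0970, 0.321 and 0.229 in OPCs. In VSMCs it was 0.0942, 0.260 and 0.314, and in COPs 0.0126, 0.0113 and 0.0353. What these ratios owe to RNA of OLGs was not tested.

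In cells with no UMI of any OLG marker, the called differences that could be fitted kept their sign, and that of *Glul* in VSMCs was still called. *Glul* in VSMCs then gave a log2 fold change of 1.44 (edgeR adjusted p = 0.0133, with 48, 185 and 42 cells). *Glul* in OPCs gave 0.57 (edgeR adjusted p = 0.0969) and *Kcnj10* in ECs 2.33 (edgeR adjusted p = 0.297), neither of them called. The *Kcnj10* value in ECs then rested on 6, 4 and 8 UMIs in 612, 1200 and 351 cells, against 16, 10 and 65 UMIs in all ECs. It read 0.029, 0.0091 and 0.087 UMIs per 10000, with 2VO 1 above both sham libraries. At such counts the lost call does not show a smaller difference. NPCs and COPs had 5 and 0 such cells in 2VO 1 and could not be fitted. The part that RNA of OLGs had in the values of whole classes was not tested.

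**Figure D4:**
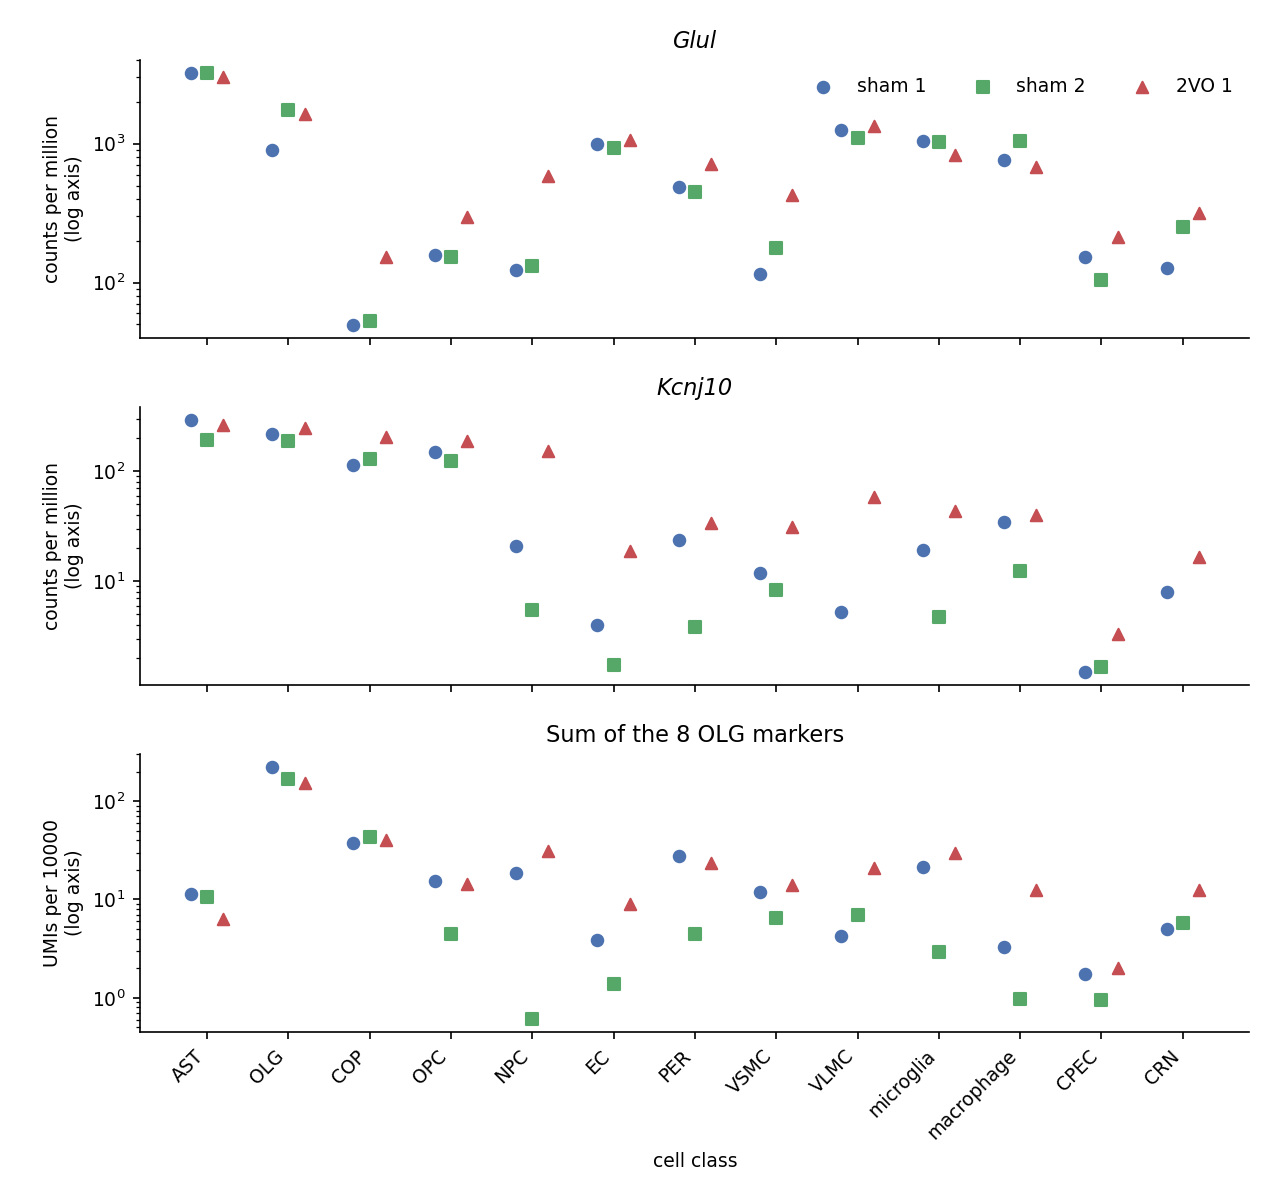
The upper panels give the CPM of *Glul* and *Kcnj10* and the lower panel the sum of 8 OLG markers per 10000 UMIs, on log axes, with 1 point per library in 13 cell classes. Points at 0 (*Kcnj10* of sham 2 in VLMCs and CRNs) are not drawn. Both *Kcnj10* and the markers are highest in 2VO 1 in ECs, NPCs, VSMCs, VLMCs, microglia, macrophages, CPECs and CRNs. In VLMCs, macrophages and CRNs *Kcnj10* rests on at most 7 UMIs in a library.

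Whether the response of ASTs differed from that of another class was tested as an interaction, against OLGs, OPCs and ECs. None of the 9 genes passed in any of the 3 pairs, where 0%, 0.00786% and 0% of all genes did. The smallest p was that of *Kcnj10* in ASTs against ECs, a log2 difference of -2.84 (SE 0.59, unadjusted p = 0.00122, edgeR adjusted p = 0.182). *Glul* in ASTs against OPCs gave -1.19 (SE 0.30, unadjusted p = 0.00223, edgeR adjusted p = 0.516). This fit treated the class sums of a library as independent, though the classes come from the same 3 libraries. With library as a term, an alternative, more of all genes tested passed in each pair, and its values for the 9 genes are not reported here. A different response of ASTs and these classes was thus not shown by the fit without that term, which leaves the pairing of classes unused.

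The connexins and *Slc1a3* in VLMCs were not called either, where 1.06% of genes were. *Gjb2* read 422, 580 and 331 CPM (log2 fold change -0.61, SE 0.41, edgeR adjusted p = 0.788), *Gjb6* 321, 642 and 380 (-0.36, SE 0.44), *Gja1* 306, 358 and 281 (-0.25, SE 0.41) and *Slc1a3* 490, 625 and 306 (-0.87, SE 0.42, edgeR adjusted p = 0.634). For *Gjb6* 2VO 1 lay between the sham libraries, and for the other 3 genes it lay below both. Without sham 2 the sign of *Gjb6* turned (0.24), so 1 library decides it.

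Other genes of the same pathways were read in ASTs from a list of 44 in 6 roles. Of these 35 could be tested and 0 were called in either direction, with 13 above and 22 below 0 and a median log2 fold change of -0.14, beside -0.093 for all genes tested. The glutamine exporter gene *Slc38a3*, whose product hands glutamine on, read 179, 194 and 372 CPM (0.99, SE 0.20, unadjusted p = 0.00288, edgeR adjusted p = 0.300), but in ASTs with no UMI of an OLG marker its log2 fold change was 0.0036. *Car2* (carbonic anhydrase 2) read 679, 824 and 392 CPM (-0.94, SE 0.22, edgeR adjusted p = 0.300), and *Dtna*, part of the dystrophin complex at endfeet, 420, 461 and 684 CPM (0.64, SE 0.18, edgeR adjusted p = 0.314). In these 3 genes 2VO 1 lay outside the sham values, though none passed the adjustment.

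*Glud1* (glutamate dehydrogenase) read 813, 914 and 598 CPM, *Dag1* (dystroglycan) 207, 182 and 120, and *Kcnj16*, a partner of *Kcnj10*, 59.2, 71.3 and 26.6, all with 2VO 1 below both sham libraries. *Atp1b2*, a sodium pump subunit, read 1215, 1088 and 844 CPM, and *Slc7a10* (a serine and alanine transporter) 367, 337 and 458. The edgeR adjusted p of these 5 lay between 0.355 and 0.451. *Slc4a7*, a bicarbonate cotransporter, rested on 27, 41 and 1 UMIs, and *Slc6a9*, a glycine transporter, on 91, 54 and 4 (edgeR adjusted p = 0.475 and 0.684). The connexin gene *Gjb1* had 27 and 32 UMIs in ASTs of the sham libraries and 0 in those of 2VO 1. A floor of 3 counts there is 19.9 CPM, so *Gjb1* was at least 1.09-fold lower, which covers counting error only.

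Likeness of pattern was measured as Pearson's r of log2(CPM + 1) over 39 sums (13 classes in 3 libraries, with libraries shared across classes), a description with no test. Among 15361 genes, the closest to *Gjb2* were *Prrx2* (0.94), *Ranbp3l* (0.93) and *Col1a1* (0.91), and the closest to *Gjb6* were *Slc7a11*, *Hsd11b1* and *Aspg* (each 0.93). *Aqp4* was closest to *Fgfr3* (0.92), *Hapln1* (0.89) and *Celrr* (0.89), and *Slc1a2* to *Celrr* (0.89), *Slc6a11* (0.88) and *Mir124-2hg* (0.87). *Kcnj10* was closest to *Cdh20* (0.84), *Sox8* (0.84) and *Megf10* (0.81), and *Glul* to *Paqr7* (0.84), *Selenop* (0.83) and *S1pr1* (0.79). *Gja1* was closest to *Scara3* (0.84), *Fgd6* (0.83) and *Gstm1* (0.82), *Slc1a3* to *Tspan7* (0.80), *Hsd11b1* (0.79) and *St3gal4* (0.79), and *Slc4a4* to *Sorcs2*, *Tspan7* and *Hsd11b1* (each 0.80). Among the 9 genes themselves the closest pair was *Gjb6* and *Gjb2* (0.85), and the lowest r was that of *Kcnj10* and *Gjb2* (-0.11).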

How the data were processed

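The deposited files hold UMI counts per gene and barcode, with no normalization. The authors state that reads of 10x 3′ libraries were aligned with Cell Ranger to GRCm38 (mm10), and the submitters' notes also name Seurat 3.2.2. Ambient RNA removal before deposit is not given in the sources used here. Whole numbers that sum to different totals per library were taken as raw counts. Of 4 samples, 3 with a count matrix entered the work and the fourth, 2VO 2, is not analysed here. Per the methods each suspension came from a single mouse. With 1 residual degree of freedom in a class, edgeR moderated the variance of a gene with that of all genes tested there. The p-values and intervals thus do not rest on the spread between 2 sham libraries alone, and they assume that the single 2VO library varies like the sham libraries.

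Barcodes with at least 650 genes were kept and genes seen in at least 20 cells were used (16993). Counts were scaled to 10000 per cell and logged, and 2000 variable genes without the 9 genes, 30 components, 15 neighbours and Leiden at resolution 1.0 gave the clusters (scanpy 1.11.5, leidenalg 0.10.2). A cluster was named when at least 3 markers of a class were found in 10% of its cells or more and at 2 times their level elsewhere, with a lead of 0.2 in the fraction of markers. The rule was chosen with the clusters in view. Doublets were scored with Scrublet at a limit of 0.2, since its automatic limit marked 1 cell of 2VO 1, and were left out only as an alternative. Sums per class and library were tested with edgeR 4.0.16 (TMM, filterByExpr) in R 4.3.3, or DESeq2 1.42.0 as an alternative, and the test was checked on simulated counts. Other alternatives were RLE factors, no filter on low counts, barcodes with at least 200 genes, resolution 2.0, the 9 genes among the clustering genes, cells thinned to 1000 UMIs, each sham library left out and, added after the data were seen, no cell with a UMI of an OLG marker. For the interaction, library as a term was a further alternative. Named were the 9 genes, and per role of the pathway list the called genes or the 2 with the smallest p, of which 1 gene is not reported here. The members and lists were chosen with earlier results of these data known. Sequences came from RefSeq, where promoters of 8 of the 9 genes matched.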

Additional observations from a re-analysis of the deposited data

How the results depend on the processing

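No paired analysis was possible because sham and 2VO libraries with counts share only 1 replicate number. Of 493 repeats of 59 single results, 30 turned the sign. Called genes over all classes numbered 6, and 1 with DESeq2. In cells without a UMI of an OLG marker, chosen after seeing the data, they numbered 3, among them *Slc1a2* and *Slc4a4* in OPCs (0.90 and 1.09). In ASTs and over all cells 0 were called under each alternative run. Without a filter on low counts 451 of 15956 genes were called in ASTs. Among them were 2 genes of the pathway list, *Slc38a3* (0.90) and *Car2* (-1.04). In cells without OLG marker UMIs these gave 0.0036 and -0.88, and the median of that list was -0.39.

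The call of *Glul* in COPs was lost without the filter (adjusted p = 0.0778), with cells of 200 or more genes (0.270), with the members among the clustering genes (0.183) and after thinning (0.311). DESeq2 also lost *Kcnj10* in ECs (0.162), *Glul* in NPCs (0.0525) and in VSMCs (0.999), and gave no adjusted p for *Glul* in COPs and *Kcnj10* in NPCs. *Kcnj10* in ECs was lost with cells of 200 or more genes (0.0507), and in NPCs with members among the clustering genes (0.0541). Leaving out each sham library gave log2 fold changes of 2.25 to 3.44 for *Kcnj10* in ECs, 2.85 to 4.72 for *Kcnj10* in NPCs, 1.27 to 1.89 for *Glul* in VSMCs, 2.20 to 2.25 in NPCs, 0.91 to 1.01 in OPCs and 1.51 to 1.62 in COPs. These have no test. *Slc1a2* in OPCs (adjusted p = 0.0533) was called with RLE factors (0.0426), cells of 200 or more genes (0.0301), doublets removed (0.0118), resolution 2.0 (0.0328) and in cells without OLG marker UMIs (0.00207). Of all genes, these alternatives called higher 1494 of 12189, 1374 of 12324, 1354 of 11722, 1661 of 12159 and 918 of 10772, in that order.

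Signs turned only for uncalled differences. In ASTs, *Slc1a2* gave -0.061 without the filter, -0.033 with DESeq2 and -0.012 after thinning, *Gja1* -0.014 without the filter, *Gjb6* -0.090, -0.062 and -0.33 in those 3 and -0.041 with doublets removed, and *Glul* 0.12 after thinning. With cells of 200 or more genes *Kcnj10* gave -0.0088, *Gja1* -0.039, *Gjb6* -0.10 and *Gjb1* 1.35. In cells without OLG marker UMIs, *Glul* gave 0.047, *Aqp4* -0.79 and *Gjb2* 0.041 in ASTs and *Slc1a3* -0.12 in ECs. In VLMCs, thinning gave -0.62 for *Glul* and 0.081 for *Gjb2*. Leaving out 1 sham library turned 11 more. In ASTs without sham 1, *Slc1a2* gave -0.059, *Gja1* -0.092 and *Gjb2* 0.048, and without sham 2 *Kcnj10* gave -0.15 and *Gjb6* -0.075. In VLMCs without sham 2, *Slc1a2* gave 0.19, *Slc4a4* 2.56 and *Gjb6* 0.24. Over all cells, *Glul* gave -0.15 and *Kcnj10* 0.14 without sham 1, and *Gjb2* 0.36 without sham 2. The median of the 9 genes in ASTs was -0.090 without the filter, -0.062 with DESeq2, -0.088 with cells of 200 or more genes, -0.041 with doublets removed and -0.10 to -0.059 without 1 sham library. The 38 ASTs of 2VO 1 limit what can be seen in the scarce genes. The cause of these changes was not tested.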
